A study of Mus musculus with 68 samples.

Results

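The genes described here were 2 synucleins, Sncb (beta-synuclein) and Sncg (gamma-synuclein), and 6 genes that are mutated or linked to risk in familial Parkinson disease, Uchl1, Fbxo7, Park7, Pink1, Lrrk2 and Vps35. They were chosen by gene symbol, and each of the 8 symbols matched exactly 1 of the 36172 genes in the table. RNA was drawn through the recording pipette from single dopamine (DA) neurons of the ventral tegmental area (VTA) in 12-month-old mice (Patch-seq), and the table holds 33 cells from 3xTg and 35 cells from WT. 3xTg mice are homozygous for human transgenes that include APP_Swe and Tau_P301L, whereas WT mice carried none of them and came from a separate line kept in parallel on the same hybrid background of C57BL/6, 129X1/SvJ and 129S1/Sv, so that genotype and line cannot be told apart. Males and females were pooled, and the labels do not name the mouse of a cell. Each genotype was therefore 1 sample, no test between genotypes was possible, and every SD below is a spread among cells, which says nothing of animals.

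Synucleins are small presynaptic proteins that bind vesicle membranes. Beta- and gamma-synuclein belong to the family whose aggregating member defines the Lewy pathology of Parkinson disease, a disorder in which midbrain DA neurons degenerate. The other genes act at distinct steps of protein and organelle quality control. Uchl1 encodes an abundant neuronal deubiquitinase, and Fbxo7 encodes an F-box protein that brings substrates to a ubiquitin ligase. Park7 encodes DJ-1, a redox-sensitive protein, and Pink1 encodes a kinase that accumulates on damaged mitochondria and marks them for removal. Lrrk2 encodes a kinase that phosphorylates Rab GTPases, and Vps35 encodes the core subunit of retromer, which retrieves cargo from endosomes.

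In the mm10 coordinates of the authors' table, Sncb (gene identifier 104069) lies at chr13:54758860-54766440 on the minus strand and Sncg (20618) at chr14:34370274-34374669, also on the minus strand. Uchl1 (22223) lies at chr5:66676121-66687234 on the plus strand and Fbxo7 (69754) at chr10:86021929-86048328 on the plus strand. Park7 (57320) and Pink1 (68943) are both on the minus strand of chromosome 4, at chr4:150897133-150909921 and chr4:138313410-138326296. Lrrk2 (66725) lies at chr15:91673224-91816124 on the plus strand and Vps35 (65114) at chr8:85260392-85299497 on the minus strand.

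Because Sncb and Sncg are paralogs, the start of both coding sequences is shown to let a reader judge how well reads could be assigned to one or the other. The sequences are the first 90 coding bases of the GENCODE transcripts, at chr13:54765594-54765683 and chr14:34374491-34374580 (GRCm38, minus strand), with bases that differ between the genes in capitals.
Sncb: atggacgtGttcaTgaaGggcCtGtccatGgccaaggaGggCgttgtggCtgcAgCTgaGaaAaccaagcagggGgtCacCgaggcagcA
Sncg: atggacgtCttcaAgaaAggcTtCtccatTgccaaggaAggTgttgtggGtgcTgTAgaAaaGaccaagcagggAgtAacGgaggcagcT
The 2 stretches differed at 18 bases and were 80% identical. Across the whole transcripts (1351 bases for Sncb and 852 for Sncg), the most similar ungapped window of 100 bases was 82% identical. The authors required 90% identity of an alignment, but they trimmed reads at both ends, so aligned stretches were shorter than 100 bases. A shorter window can be more similar, and none was compared, so this value cannot show that no read fits both genes. Counts were often fractional. Of the counts above 0, 92.5% of those for Sncb and 93.4% of those for Sncg were not whole numbers (tolerance 0.001), compared to 97.1% for Uchl1, 95.5% for Park7, 80.7% for Vps35, 55.6% for Lrrk2, 46.9% for Fbxo7 and 16.7% for Pink1. How the fractions arose is not given in the sources used here.

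The promoter windows of Sncb, Sncg, Uchl1 and Park7 are shown because these were the members counted in at least 80% of the cells of both genotypes. Each runs from 250 bases before to 50 bases after the RefSeq start (GRCm38.p6), at chr13:54766546-54766845 (minus), chr14:34374620-34374919 (minus), chr5:66675871-66676170 (plus) and chr4:150909872-150910171 (minus). Capitals mark 4 motifs, searched on both strands. The TATA box was searched as TATAAA, the GC box as GGGCGG and the E-box as CACGTG. The letters CCAAT were the last motif, and no match overlapped another.
Sncb: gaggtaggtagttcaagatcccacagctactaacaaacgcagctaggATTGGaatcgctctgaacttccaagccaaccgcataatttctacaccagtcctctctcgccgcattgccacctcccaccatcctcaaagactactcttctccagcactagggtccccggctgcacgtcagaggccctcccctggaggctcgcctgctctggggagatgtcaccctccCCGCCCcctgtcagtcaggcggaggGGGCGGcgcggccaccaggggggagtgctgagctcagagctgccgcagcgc
Sncg: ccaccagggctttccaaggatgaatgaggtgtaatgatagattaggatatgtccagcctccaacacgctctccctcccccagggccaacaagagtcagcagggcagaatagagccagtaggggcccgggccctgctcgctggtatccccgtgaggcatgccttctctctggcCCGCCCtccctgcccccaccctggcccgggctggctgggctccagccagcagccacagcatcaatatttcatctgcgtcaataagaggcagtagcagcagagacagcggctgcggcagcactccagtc
Uchl1: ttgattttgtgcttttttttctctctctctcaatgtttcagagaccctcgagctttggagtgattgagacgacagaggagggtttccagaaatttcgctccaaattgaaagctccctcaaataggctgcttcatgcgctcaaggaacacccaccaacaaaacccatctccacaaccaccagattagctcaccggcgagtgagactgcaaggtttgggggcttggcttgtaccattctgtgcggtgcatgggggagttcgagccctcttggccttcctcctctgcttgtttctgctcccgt
Park7: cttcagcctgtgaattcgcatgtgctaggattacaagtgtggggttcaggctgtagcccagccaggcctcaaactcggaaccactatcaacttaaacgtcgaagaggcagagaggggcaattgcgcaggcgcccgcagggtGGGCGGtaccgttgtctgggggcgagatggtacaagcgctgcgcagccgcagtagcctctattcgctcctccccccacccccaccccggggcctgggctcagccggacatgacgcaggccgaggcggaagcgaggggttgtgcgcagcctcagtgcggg
Among 32851 RefSeq windows of this length, 35.7% held a GC box, 13.6% a TATA box, 7.15% an E-box and 37.4% the letters CCAAT. Sncb held 2 GC boxes, beginning 26 bases and 1 base before the start, and a match to CCAAT 203 bases before it, whereas Sncg and Park7 each held 1 GC box, 78 and 109 bases before the start. Uchl1 held none of the 4 motifs. The Sncb window is placed by a RefSeq start that lies 155 bases from the gene's end in the authors' table, and the other 3 starts coincided. Pink1 and Lrrk2 each held 2 GC boxes, and of the 2 Fbxo7 windows 1 held an E-box. A match here is a string of letters and not evidence of binding.

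Total counts ranged from 676556 to 1678624 per 3xTg cell (median 1194457) and from 492505 to 1327367 per WT cell (median 982390), and the median number of genes detected was 8511 and 7476. Depth was thus higher in 3xTg. The numbers in the cell labels lie in runs of a single genotype (in WT, numbers 1 to 22, 57 to 74 and 94 to 96, and in 3xTg, numbers 24 to 55 and 76 to 92), and what a run marks is not stated. Below, 3xTg 24 to 55 against WT 1 to 22 are called the first runs and 3xTg 76 to 92 against WT 57 to 74 the second runs. The median number of genes detected was 5233 in WT 1 to 22 (17 cells), 7648 in 3xTg 24 to 55 (21 cells), 8441 in WT 57 to 74 (15 cells), 9308 in 3xTg 76 to 92 (12 cells) and 6216 in WT 94 to 96 (3 cells). The study retained cells positive for the dopaminergic markers Th, Slc6a3 and Slc18a2, so the presence of these markers in all 68 cells was set by that selection. Ddc, which was not part of it, was also counted in all 68 cells, whereas Pitx3 was counted in 9 3xTg and 5 WT cells. The study kept cells it scored as negative for Pvalb, Tmem119, P2ry12 and Aldh1l1, which mark interneurons and glia, and 5 cells of each genotype held a count of 1 or more of them. Summed over its list, each cell held 6738 to 34165 CPM of dopaminergic markers in 3xTg (4652 to 26026 in WT) and 545 to 8879 CPM of DA subtype markers (59.8 to 10515 in WT). GABA markers reached 167 CPM in a 3xTg cell and 267 in a WT cell, astrocyte markers 667 and 1284, oligodendrocyte markers 583 and 2540, microglial markers 3863 and 2664, and endothelial markers 1.36 and 36.1, while Aldh1l1, Cldn5 and Pecam1 were at 0 in all cells. No pair of cells held near-identical profiles (highest Pearson r between 2 cells, 0.85, across expressed genes). Cell WT 96 had the lowest total, no count of Sncb or Park7 and 3 counts of Sncg, but 706 counts of Uchl1.

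Levels are given as log2(normalized count + 1), where the count of a cell was divided by its DESeq2 size factor, and a genotype difference is the mean over 3xTg cells minus the mean over WT cells on this scale. A mean over cells gives every cell the same weight. Counts were also summed over the cells of a genotype and expressed as CPM (counts scaled to a genotype total of 1000000), which gives more weight to cells with many counts, and intervals are exact at 95%. Those of summed CPM cover counting error only, and those of a percent of cells take the cells as independent draws and say nothing of the spread between mice. The 2 calculations had different centers across the transcriptome. Among 3988 expressed genes, by a criterion adapted from that of the study and applied here to normalized in place of read counts, which gives another number of genes than the study's, the median difference was 0.47 by the mean over cells, and the median log2 ratio of summed CPM was −0.03.

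**Figure D1:**
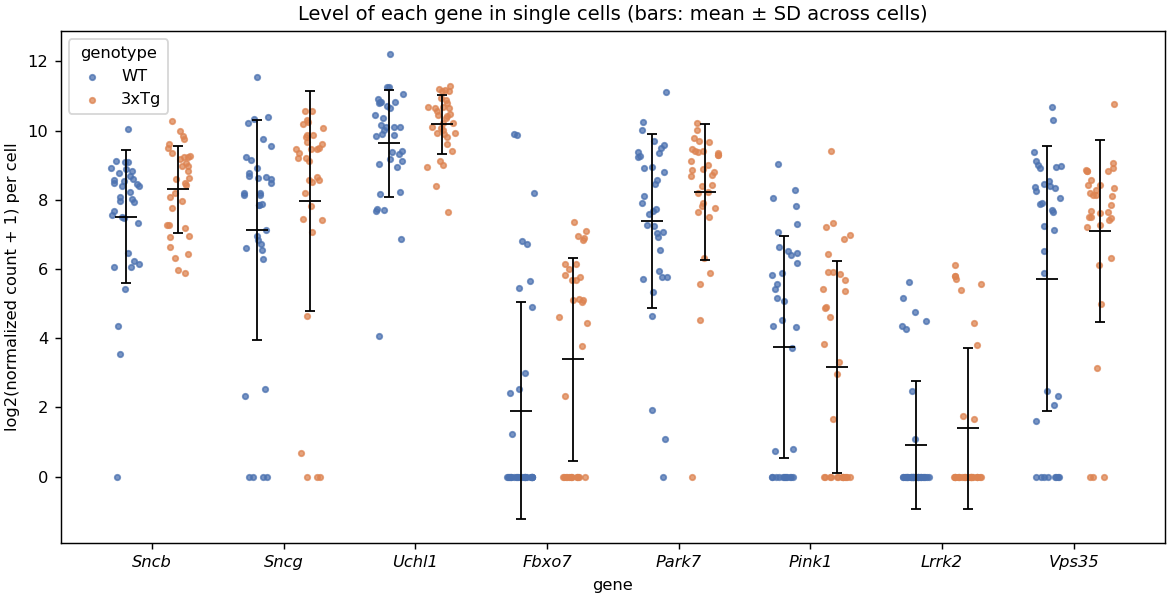
Level of each of the 8 genes in every cell, as log2(normalized count + 1), with WT in blue (35 cells) and 3xTg in orange (33 cells). Horizontal ticks with bars show the mean ± SD across cells; the genotypes overlapped for every gene, and Sncg and Vps35 had a main cloud of cells and a separate set at or near 0.

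The 8 genes differed in how many of the DA neurons held them. Uchl1 was counted in all 68 cells, Sncb in 67, Park7 in 66, Sncg in 61 and Vps35 in 57. Pink1 was counted in 42 cells, Fbxo7 in 32 and Lrrk2 in 18, and these 3 genes did not meet this criterion (80% or more of 3xTg or of WT cells with a normalized count of 1 or higher). Vps35 met it only through 3xTg, the genotype with the higher mean. A median of 6 of the 8 genes was counted per cell, the fewest were 3, and all 8 were counted together in 5 cells.

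**Figure D2:**
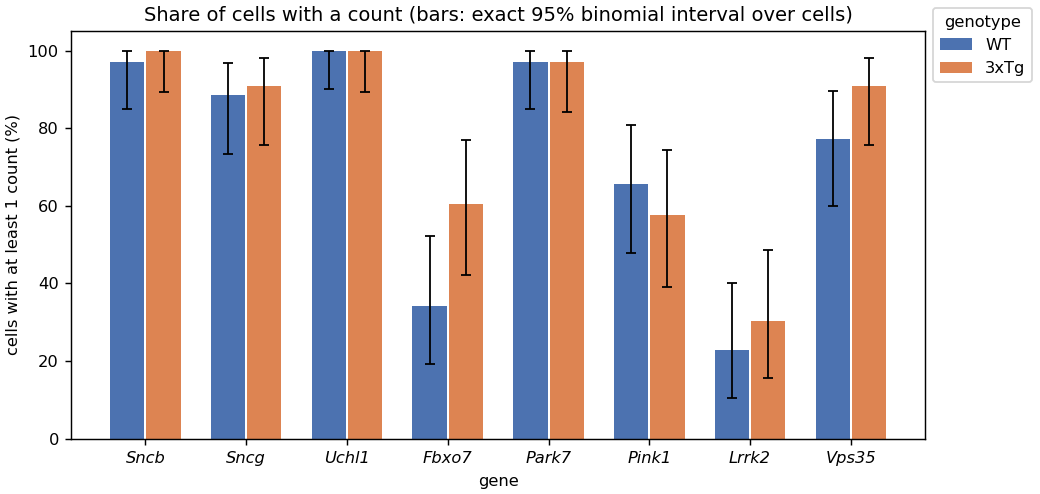
Percent of cells with at least 1 count of each gene, for WT (35 cells) and 3xTg (33 cells), with exact 95% binomial intervals that take the cells as independent draws and leave out the spread between mice. Fbxo7 (34.3% of WT, 60.6% of 3xTg) and Vps35 (77.1% and 90.9%) stood farthest apart.

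To compare genes with each other, summed CPM was divided by transcript length in kilobases (the longest protein-coding GENCODE transcript with a RefSeq link). Per kilobase, Uchl1 was highest, with 1092 CPM in 3xTg and 1007 in WT, followed by Sncg (710 and 506), Park7 (476 and 414) and Sncb (294 and 218). Vps35 followed with 75.3 CPM per kilobase in 3xTg and 84.9 in WT, then Pink1 with 17.4 and 26.7, Fbxo7 with 7.59 and 11.5, and Lrrk2 with 1.79 and 0.874. The order was the same in both genotypes. Cell by cell, Uchl1 exceeded Sncg per length in 29 of 33 cells of 3xTg and 30 of 35 cells of WT, and Sncb exceeded Vps35 in 32 and 30 cells. Neighbors that did not separate beyond the spread of cells were Sncg and Park7 (Sncg higher in 22 of 33 and 19 of 35 cells), Pink1 and Fbxo7 (Pink1 higher in 15 of 33 and 20 of 35 cells) and Fbxo7 and Lrrk2 (Fbxo7 higher in 18 of 33 and 10 of 35 cells, with both at 0 in 11 and 20). With the shorter Fbxo7 transcript (1655 in place of 5388 bases), Fbxo7 reached 24.7 CPM per kilobase in 3xTg and 37.4 in WT and lay above Pink1.

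By the mean over cells, 7 of the 8 genes were higher in 3xTg, and 2 of them, Fbxo7 and Vps35, by at least 1 on the log2 scale (2-fold). This leaned the same way as the transcriptome. Of the 10148 genes with a mean level of at least 1 over all 68 cells, a set that holds all 8 members, 75.1% were above 0, 27.1% were higher by at least 1 and 0.877% lower by at least 1. Among expressed genes the corresponding shares past 1 were 27.7% and 0.527%. The median difference of the 8 genes was 0.82, compared to 0.53 over the 10148 genes. In cells thinned to 700471 counts each, which equalized the total count of a cell but was not matched on the genes detected, the median of the 8 genes was 0.37 (0.29 for expressed genes), 7 of 8 were above 0 and Fbxo7 (1.43) passed 1, with Vps35 at 0.998. By summed counts, 5 of 8 genes were higher in 3xTg and only Lrrk2 passed 1, where 48.1% of the 10148 genes were above 0, 7.54% were higher by at least 1 and 8.72% lower by at least 1. The median log2 ratio of the 8 genes was 0.16, compared to −0.03.

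**Figure D3:**
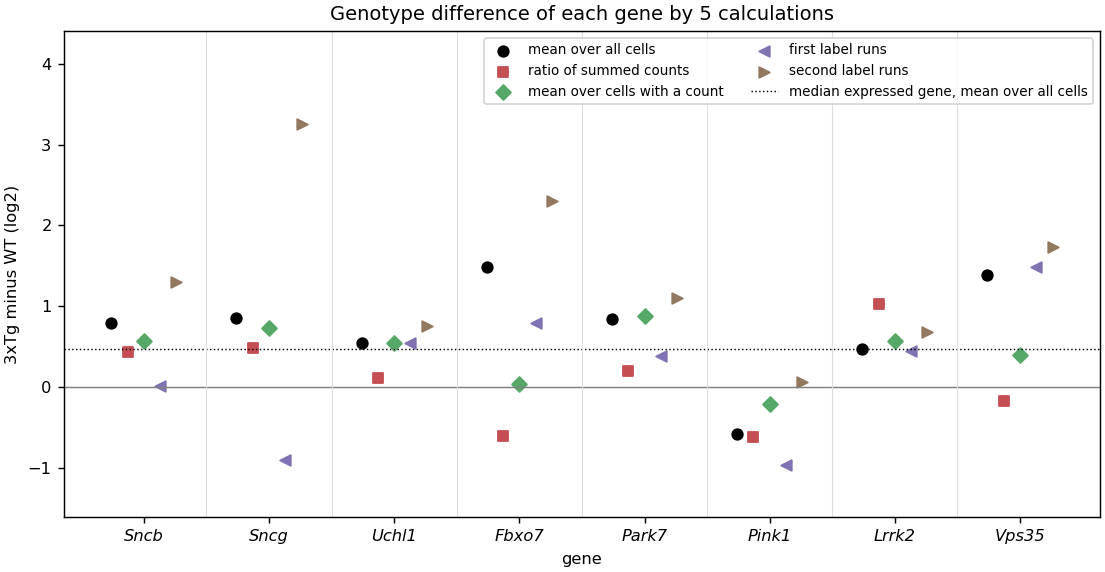
Genotype difference (3xTg minus WT, log2) of each gene by the mean over all cells, the ratio of summed CPM, the mean over cells with a count alone, and the first and second runs of label numbers; the dotted line marks the median expressed gene by the mean over all cells (0.47). The 5 values of Uchl1 lay between 0.12 and 0.75, whereas those of Sncg ran from −0.90 to 3.25 and those of Fbxo7 and Vps35 lay on both sides of 0.

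Sncb, a synuclein that is expressed mainly in the brain, was present in every cell but 1. The 3xTg cells held between 66.3 and 1071 counts (median 410), and the WT cells between 0 and 806 (median 274). The genotypes overlapped almost completely, and the lower end of the WT range was WT 96 at 0, followed by a cell with 17.7 counts. Mean levels were 8.31 ± 1.25 (SD across 33 3xTg cells) and 7.51 ± 1.93 (35 WT cells). They differed by 0.79, or by 0.57 without WT 96. The cells together had 397 CPM of Sncb in 3xTg (interval 391 to 404) and 295 CPM in WT (289 to 300), a log2 ratio of 0.43. The difference of the means was not alike in the 2 pairs of runs. In the first runs the 2 means were 8.20 and 8.19 (difference 0.01), and in the second runs they were 8.49 and 7.19 (difference 1.30).

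Sncg, the synuclein known from sensory, sympathetic and midbrain DA neurons, divided the cells into a large group with over 100 counts in nearly every cell and a small group with almost none. Counts reached 1692 in 3xTg cells (lowest 0, median 623) and 1793 in WT cells (lowest 0, median 298). In WT, 6 cells had fewer than 10 counts and the next lowest cell had 110. In 3xTg, 4 cells had fewer than 10 counts, 1 cell had 28, and all others lay above 100. The cells with few Sncg counts held Th and Slc6a3, which the study's selection required of every cell, so this is no separate check of their identity. Their Th counts ranged from 1367 (3xTg 30) to 13867 (WT 60) and their Slc6a3 counts from 415 (3xTg 24) to 9826 (WT 60). In a cell without a Sncg count, the total allowed at most between 2.40 CPM (WT 60) and 4.77 CPM (WT 58) from the upper limit of 3 counts. Of the 10 cells, 8 held Aldh1a1 and 3 held Slc17a6, a vesicular glutamate transporter. Among all cells, 23 of 33 in 3xTg and 27 of 35 in WT held Aldh1a1, compared to 8 and 6 that held Slc17a6.

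Sncg averaged 7.98 ± 3.18 in 3xTg against 7.12 ± 3.18 in WT, and this gap of 0.86 was well within 1 SD of cells. In thinned cells the gap was 0.23, below the 0.29 of the median expressed gene. Summed CPM was 605 in 3xTg (597 to 613) and 431 in WT (424 to 438), a log2 ratio of 0.49. Within a genotype, Sncg differed between runs by more than the genotypes did. It was 8.08 ± 2.89 in WT 1 to 22 and 6.11 ± 3.29 in WT 57 to 74, and 7.19 ± 3.71 in 3xTg 24 to 55 and 9.36 ± 1.01 in 3xTg 76 to 92. The difference was accordingly −0.90 in the first runs but 3.25 in the second, with log2 ratios of summed CPM of −0.29 and 1.65. All 4 of the 3xTg cells with fewer than 10 counts were in 3xTg 24 to 55. Cells that held Aldh1a1, a marker of a DA neuron subtype, did not separate from the others in Sncg, with 7.70 ± 3.24 (23 cells) against 8.60 ± 3.10 (10 cells) in 3xTg and 7.02 ± 3.21 (27 cells) against 7.46 ± 3.26 (8 cells) in WT.

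**Figure D4:**
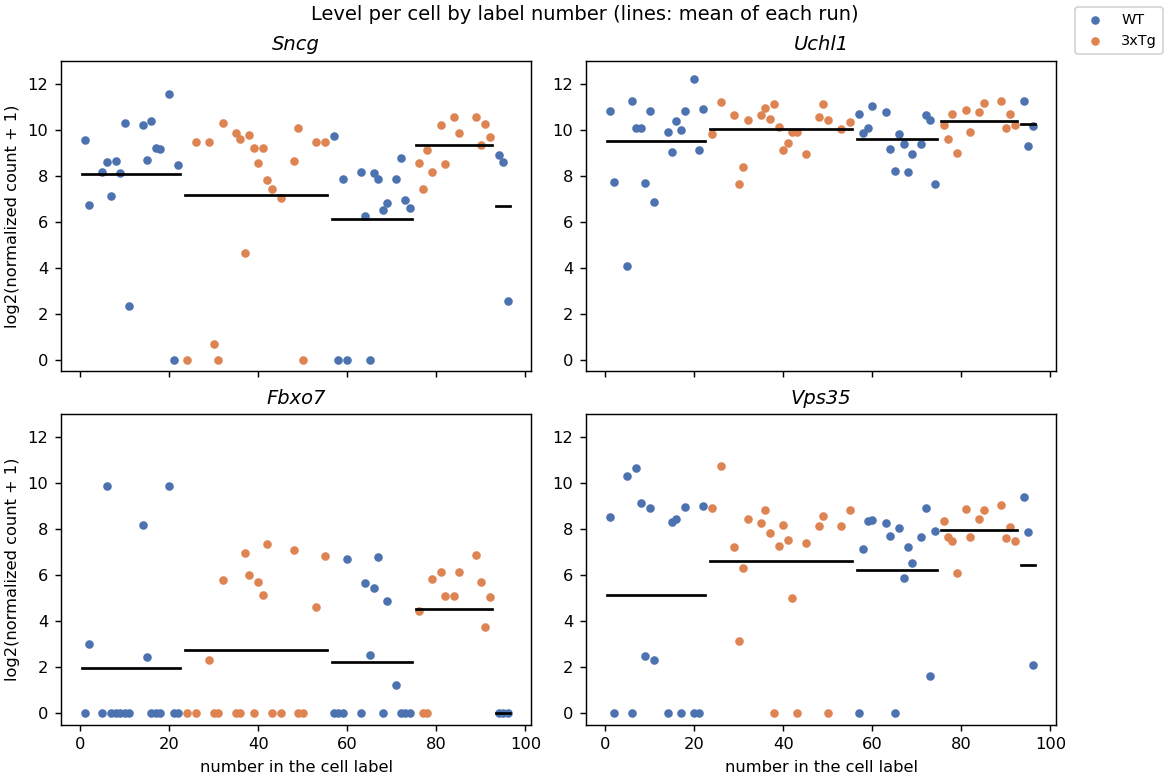
Level per cell of Sncg, Uchl1, Fbxo7 and Vps35 against the number in the cell label, with WT in blue, 3xTg in orange and a black line at the mean of each run. Sncg means moved from 8.08 and 7.19 in the first runs to 6.11 and 9.36 in the second, Uchl1 means stayed between 9.52 and 10.38, and the cells at 0 for Vps35 were concentrated in WT 1 to 22.

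Among the ubiquitin system genes, Uchl1 was the most abundant and least variable member. The 3xTg cells held between 332 and 2459 counts (median 1494), and the WT cells between 13 (WT 5) and 2787 (median 994). The range of 3xTg lay inside that of WT. Uchl1 averaged 10.18 ± 0.84 in 3xTg against 9.63 ± 1.55 in WT, and its difference of 0.55 lay 0.08 above the median expressed gene. Summed CPM was 1285 (1274 to 1297) and 1185 (1174 to 1197), a log2 ratio of 0.12. The difference of the means was 0.54 in the first runs and 0.75 in the second.

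Fbxo7 was counted in 20 of 33 3xTg cells (60.6%, interval 42.1% to 77.1%) and 12 of 35 WT cells (34.3%, interval 19.1% to 52.2%). Counts reached 207 in 3xTg cells (lowest 0, median 33.8) and 710 in WT cells (lowest 0, median 0). More 3xTg cells held the transcript, but the highest values were in WT. In WT, 3 cells had 710 (WT 6), 564 (WT 20) and 369 counts (WT 14) and together held 77.9% of the WT sum. All 3 belonged to WT 1 to 22. Over all cells the 2 calculations went in opposite directions. Fbxo7 averaged 3.40 ± 2.94 in 3xTg against 1.91 ± 3.14 in WT (difference 1.49), whereas summed CPM was 40.9 in 3xTg (38.9 to 43.03) and 61.96 in WT (59.3 to 64.7), a log2 ratio of −0.60. Among cells that held Fbxo7, the levels were 5.60 ± 1.23 (20 cells) and 5.56 ± 2.89 (12 cells), a difference of 0.05. By run, Fbxo7 was counted in 5 of 17 cells of WT 1 to 22, 10 of 21 of 3xTg 24 to 55, 7 of 15 of WT 57 to 74, 10 of 12 of 3xTg 76 to 92 and 0 of 3 of WT 94 to 96. The difference of the means was 0.79 in the first runs and 2.30 in the second, and the log2 ratio of summed CPM was −1.27 in the first but 0.42 in the second, so that the calculations were opposite in the first runs and not in the second.

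Park7 was counted in 32 3xTg and 34 WT cells. The highest count was 795 among 3xTg cells (lowest 0, median 537) and 1305 among WT cells (lowest 0, median 264). The WT cells spanned the whole range of the 3xTg cells and held the 3 highest values. Mean levels were 8.22 ± 1.97 in 3xTg against 7.38 ± 2.52 in WT, and they differed by 0.84, by 0.62 without WT 96 and by 1.10 without 3xTg 26, each a cell at 0. Summed CPM was 433 in 3xTg (426 to 439) and 376 in WT (370 to 383), a log2 ratio of 0.20. The difference of the means was 0.39 in the first runs and 1.11 in the second.

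Pink1 was the only member with a lower mean in 3xTg. It was counted in 19 of 33 3xTg cells (57.6%, interval 39.2% to 74.5%) and 23 of 35 WT cells (65.7%, interval 47.8% to 80.9%). Counts reached 390 in 3xTg cells (lowest 0, median 10) and 296 in WT cells (lowest 0, median 28). The highest single cell was 3xTg 26, which held 25.8% of the 3xTg sum. Pink1 averaged 3.17 ± 3.07 in 3xTg against 3.75 ± 3.21 in WT, and the difference of −0.58 lay at the 4.05 percentile of the 10148 genes. Summed CPM was 41.2 (39.2 to 43.4) in 3xTg and 63.3 (60.7 to 66.04) in WT, a log2 ratio of −0.62, at the 18.5 percentile. By the mean over cells the difference was −0.96 in the first runs and 0.06 in the second, and the log2 ratio of summed CPM was −0.66 and −0.27. In WT, the level of Pink1 was 2.69 ± 3.67 in the 13 cells with a count of the microglial gene C1qb and 4.38 ± 2.81 in the 22 cells without one, compared to 3.24 ± 3.46 (10 cells) and 3.14 ± 2.97 (23 cells) in 3xTg.

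Lrrk2 was counted in 10 of 33 3xTg cells (30.3%, interval 15.6% to 48.7%) and 8 of 35 WT cells (22.9%, interval 10.4% to 40.1%). The median count was 0 in both genotypes, the highest was 142 in 3xTg (3xTg 92) and 71 in WT (WT 71), and the 3 highest cells held 56.3% and 64.3% of the sums. Lrrk2 averaged 1.40 ± 2.33 in 3xTg against 0.92 ± 1.85 in WT, and the difference of 0.48 lay less than 0.01 above that of the median expressed gene. Summed CPM was 14.8 (13.6 to 16.1) and 7.23 (6.36 to 8.19), a log2 ratio of 1.04. Lrrk2 varied more between runs than between genotypes. It had 3.33 CPM in WT 1 to 22 and 12.98 CPM in WT 57 to 74, and 6.57 CPM in 3xTg 24 to 55 and 26.7 CPM in 3xTg 76 to 92. In both pairs of runs the 3xTg value was the higher one.

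Because Lrrk2 is also known from myeloid cells, its values were set beside microglial transcripts. Lrrk2 was counted in 5 of 10 3xTg cells with C1qb and in 5 of 23 without it, and in 4 of 13 and 4 of 22 WT cells. At least 1 of 5 microglial markers was found in 31 cells of 3xTg and 33 of WT, with summed levels from 0 to 3863 CPM and from 0 to 2664 CPM. Most of these cells held Cx3cr1 (29 cells of 3xTg and 30 of WT, at 14.2 and 11.8 CPM), whereas C1qb was found in 10 and 13 cells (76.2 and 321 CPM) and Csf1r in 2 and 7 (11.5 and 19.7 CPM). Tmem119 had no count in 3xTg and was counted in a single WT cell (10.5 CPM), and P2ry12 was found in 4 and 3 cells (10.6 and 13.5 CPM). By summed CPM, Cx3cr1 alone of these markers was higher in 3xTg. Without the cells that held Pvalb, Tmem119, P2ry12 or Aldh1l1, the difference of Lrrk2 was 0.19. The part of these transcripts in the Lrrk2 values was not tested.

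Vps35 was counted in 30 of 33 3xTg cells (90.9%, interval 75.7% to 98.1%) and 27 of 35 WT cells (77.1%, interval 59.9% to 89.6%). The highest count was 997 among 3xTg cells (lowest 0, median 299.7) and 1302 among WT cells (lowest 0, median 293). The medians were close, but the lower ends were not. Vps35 had fewer than 10 counts in 12 WT cells and 3 3xTg cells, and the next lowest WT cell had 83 counts. Of these 12 WT cells, 8 belonged to WT 1 to 22, 3 to WT 57 to 74 and 1 to WT 94 to 96, and none of 12 cells of 3xTg 76 to 92 was below 10. Among the 12, WT 2, WT 21 and WT 65 held 7929, 8808 and 8276 genes detected, above the WT median of 7476. The others held only 3770 (WT 11) to 5788 (WT 73). The 3 3xTg cells held 4721 to 5801, below the 3xTg median of 8511. Over all cells, rho of Vps35 with the number of genes detected was 0.15 in WT and 0.05 in 3xTg. The part of gene detection in the low Vps35 counts was not tested. Vps35 averaged 7.11 ± 2.63 in 3xTg against 5.72 ± 3.82 in WT, so that the difference was 1.39. Among cells that held Vps35 it was 7.82 ± 1.37 and 7.41 ± 2.47, a difference of 0.40. Summed CPM was 261 in 3xTg (256 to 267) and 295 in WT (289 to 301), a log2 ratio of −0.17, opposite in direction to the mean over cells. By the mean over cells the difference was 1.48 in the first runs and 1.73 in the second, whereas the log2 ratio of summed CPM was −0.36 in the first and 0.16 in the second, and thus opposite in the first runs alone.

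**Figure D5:**
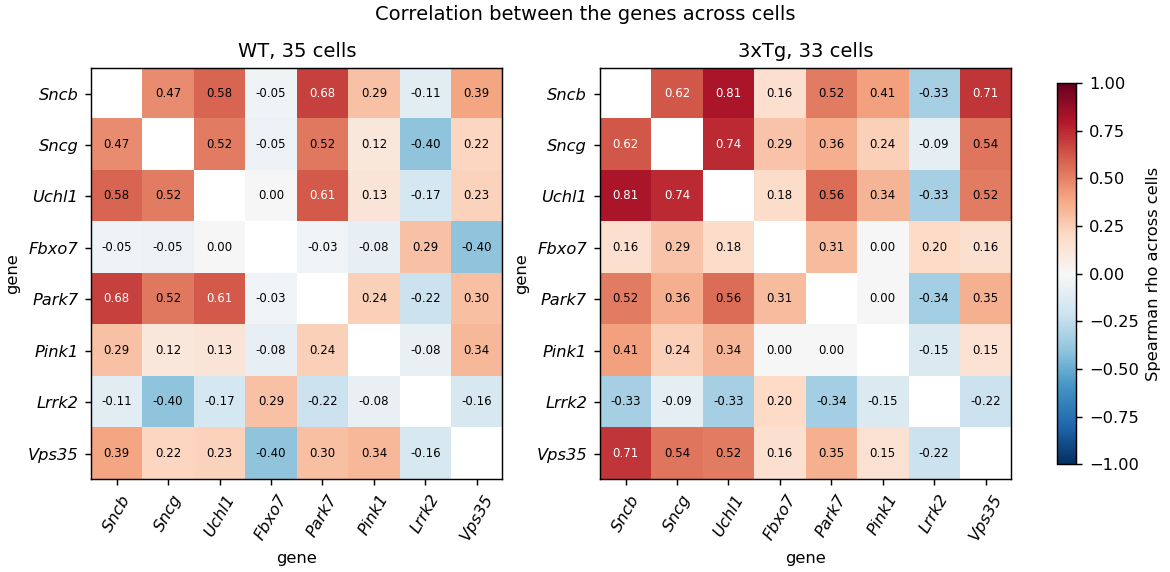
Spearman rho between the levels of each pair of the 8 genes across 35 WT cells (left) and 33 3xTg cells (right), on a color scale from −1 to 1. Sncb, Sncg, Uchl1 and Park7 had rho between 0.47 and 0.68 in WT and between 0.36 and 0.81 in 3xTg, whereas Lrrk2 had a negative rho with each gene except Fbxo7 in both genotypes before cells were thinned to equal totals.

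Across cells, the 4 abundant members varied together by rank. Their 6 pairwise Spearman rho ranged from 0.47 (Sncb and Sncg) to 0.68 (Sncb and Park7) in WT and from 0.36 (Sncg and Park7) to 0.81 (Sncb and Uchl1) in 3xTg. The 6 Pearson r ranged from 0.27 (Sncg and Uchl1) to 0.72 (Sncb and Park7) in WT and from 0.15 (Sncg and Park7) to 0.82 (Sncb and Uchl1) in 3xTg. Vps35 had rho of 0.71, 0.54, 0.52 and 0.35 with Sncb, Sncg, Uchl1 and Park7 in 3xTg, and of 0.39, 0.22, 0.23 and 0.30 in WT. Cells share the library depth and the size factor that divides every gene. The levels of the 4 abundant members also followed the total count of a cell, with rho from 0.43 (Sncg) to 0.70 (Sncb) in WT and from 0.45 (Park7) to 0.59 (Uchl1) in 3xTg. After every cell was thinned to 700471 counts (30 WT and 31 3xTg cells), the 6 pairwise rho ranged from 0.13 (Sncb and Sncg) to 0.55 (Uchl1 and Park7) in WT and from −0.04 (Sncg and Park7) to 0.50 (Sncg and Uchl1) in 3xTg. For Sncb and Uchl1 in 3xTg, rho was 0.81 before and 0.29 after thinning. When the number of genes detected was instead regressed out of each level, the 6 pairwise rho stayed between 0.40 and 0.65 in WT and between 0.33 and 0.81 in 3xTg, close to the unadjusted ones. For Sncg and Uchl1, rho after thinning was 0.44 in WT and 0.50 in 3xTg. The negative sign of Lrrk2 did not hold for every pair in thinned cells, where rho was 0.17 with Sncg in 3xTg and 0.03 with Pink1 in WT. With the number of genes detected regressed out, rho of Lrrk2 in WT was 0.04 with Sncb, 0.02 with Uchl1 and 0.02 with Pink1. In cells that were not thinned, rho with Th in WT and 3xTg was 0.75 and 0.81 for Sncb, 0.73 and 0.88 for Uchl1 and 0.76 and 0.51 for Park7. It was 0.45 and 0.68 for Sncg, 0.37 and 0.65 for Vps35, 0.41 and 0.37 for Pink1 and −0.05 and 0.18 for Fbxo7. Lrrk2 did not follow Th (−0.03 and −0.24).

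For the 4 members counted in at least 80% of the cells of both genotypes, the 3 expressed genes with the highest rho over WT cells were found and read again in 3xTg cells, where they held other ranks. In WT, Sncb was most like Pkm, a glycolytic enzyme, followed by Cnnm4 and Sepw1 (rho 0.90, 0.88 and 0.87). In 3xTg these were the 40th, 168th and 433rd genes for Sncb (0.83, 0.75 and 0.65). Uchl1 was most like Gapdh, another glycolytic enzyme, and the predicted genes Gm12070 and Gm5069 in WT (0.86, 0.84 and 0.83), which ranked 32nd, 78th and 156th in 3xTg (0.83, 0.79 and 0.76). For Park7 the WT genes were Slc25a5, an ADP/ATP carrier, Chchd2, itself linked to Parkinson disease, and Timm8b, an import chaperone (0.81, 0.80 and 0.77). Chchd2 ranked 12th in 3xTg (0.81), but Slc25a5 ranked 846th (0.46) and Timm8b 470th (0.57). For Sncg they were Prmt2, the calcium sensor Vsnl1 and the vesicle GTPase Rab3c (0.76, 0.72 and 0.70), at ranks 199, 466 and 218 in 3xTg (0.62, 0.54 and 0.61). The median rho with all expressed genes ranged from 0.02 to 0.10 in WT and from 0.18 to 0.25 in 3xTg. In thinned WT cells the 12 values ranged from 0.35 (Cnnm4) to 0.82 (Pkm), and Pkm was still the gene most like Sncb. In thinned 3xTg cells they ranged from 0.10 (Cnnm4) to 0.55 (Chchd2), and those other than Chchd2 and Pkm (0.51) were at 0.36 or lower. With the number of genes detected regressed out, the 12 values ranged from 0.61 to 0.88 in WT and from 0.47 to 0.83 in 3xTg.

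Partners of Vps35, Fbxo7, Uchl1, Pink1 and Lrrk2 were next described as lists, over genes with a mean level of at least 1. Of 9 retromer and sorting nexin genes, 8 were higher in 3xTg by the mean over cells, 4 of them by at least 1, with a median of 0.88. By summed counts 6 were higher and none passed 1. Vps29, a retromer subunit that binds Vps35, averaged 7.83 ± 1.06 in 3xTg against 6.35 ± 3.05 in WT (difference 1.48), but its log2 ratio of summed CPM was 0.07. The other retromer partners, Vps26a and Vps26b, differed by 0.71 and 0.88, with log2 ratios of −0.21 and 0.39. Snx1 differed by 1.98 (29 of 33 3xTg and 22 of 35 WT cells) and Snx6 by −0.37 (24 and 29 cells), and each met the expression criterion only through the genotype in which it was higher.

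Of 4 genes, 3 of the SCF ligase core and the Fbxo7 partner Psmf1, all were higher by the mean over cells, 1 by at least 1, and 2 were higher by summed counts, with medians of 0.65 and −0.10. Skp1a, which binds the F-box of Fbxo7, had a difference of 0.70 and a log2 ratio of 0.39. Psmf1, a proteasome inhibitor that binds Fbxo7, had 1.26 and −0.34, Cul1 had 0.61 and −0.94, and Rbx1 had the lowest difference, 0.59. The hydrolases related to Uchl1 differed by 1.68 (Uchl3), 1.23 (Uchl5) and 1.03 (Bap1), and by log2 ratios of 0.76, 0.24 and −0.60. Uchl3 (29 of 33 3xTg and 25 of 35 WT cells), Uchl5 and Cul1 (each in 27 and 23 cells) met the expression criterion only through 3xTg, where their means were higher, and Bap1 and Psmf1 did not meet it.

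Of 16 genes for PINK1 import and mitophagy with a mean level of at least 1, 16 were higher by the mean over cells, 5 by at least 1, with a median of 0.79, and 10 were higher by summed counts, none by at least 1. The remaining gene of this list, Usp30, a deubiquitinase of the outer mitochondrial membrane, had a mean level below 1 and was lower in 3xTg (−0.15, log2 ratio −1.45). The difference of Pink1 itself, −0.58, lay below that of each of these genes. Mfn2, a mitofusin, differed by 2.50 (log2 ratio 0.75), but it was held by 28 of 33 3xTg and 19 of 35 WT cells and met the expression criterion only through 3xTg, where it was higher. Tomm7, a small subunit of the outer membrane import pore, had the lowest difference among the expressed genes of the list (0.20, log2 ratio −0.39). Parl, the protease that cleaves Pink1, differed by 0.66, with a log2 ratio of 0.14.

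Of 10 Rab substrates, phosphatase and Ywha adaptor genes linked to LRRK2, 10 were higher by the mean over cells, 5 by at least 1, with a median of 0.98, and 8 were higher by summed counts, 1 by at least 1. The 2 other genes of this list in the table fell below a mean level of 1, and both were lower in 3xTg: Rab7l1 (−0.40, log2 ratio −2.32) and Rab35 (−0.39, log2 ratio −2.26). Ywhaq, an adaptor of the family that binds phosphorylated LRRK2, had the highest difference among the expressed genes (1.5, log2 ratio 0.60) and Rab8b the lowest (0.13, log2 ratio −0.25). The other adaptors Ywhab, Ywhag and Ywhaz differed by 1.08, 1.43 and 0.86, with log2 ratios of 0.42, 0.30 and 0.35. Rab3a, a synaptic vesicle GTPase, was 9.85 ± 1.92 in 3xTg and 9.55 ± 1.44 in WT.

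Of 12 other genes linked to Parkinson disease, 10 were higher by the mean over cells, 4 by at least 1, with a median of 0.92. By summed counts 8 were higher, none by at least 1, and 2 were lower by at least 1, Vps13c (−1.33) and the mitochondrial protease Htra2 (−1.22). Gak, which uncoats clathrin vesicles, differed by 2.13 (log2 ratio 0.98), but it was held by 30 of 33 3xTg and 23 of 35 WT cells and met the expression criterion only through 3xTg, where it was higher. Chchd2 had the lowest difference among the expressed genes of this list (0.42, log2 ratio 0.01). The counts of all these lists stand beside 75.1% of all 10148 genes above 0 and 27.1% higher by at least 1 by the mean over cells, and beside 48.1% above 0, 7.54% higher by at least 1 and 8.72% lower by at least 1 by summed counts.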

How the data were processed

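RNA of 68 single VTA DA neurons, 33 from 3xTg and 35 from WT mice, was captured by its poly-A tail, amplified by 28 cycles of PCR and sequenced in paired reads of 100 bases. The authors trimmed reads, used Strand NGS 4.0 for alignment at 90% identity or more with RefSeq transcripts of mm10, removed duplicates and deposited estimated counts per gene, of which 55.3% of those above 0 were not whole numbers. The deposited log2 values beside them came from the authors' normalization by DESeq2's algorithm and were used only as an alternative. No molecular identifiers are stated, so intervals of summed counts cover counting error only.

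From the deposited counts, DESeq2 size factors were derived from 787 genes that every cell held, without rounding, and levels are log2(normalized count + 1). Counts were rounded to whole numbers for sums, thinning and TMM. No gene was tested, because each genotype is 1 sample, and differences of at least 1 (2-fold) are only counted. The study itself took cells as replicates. Thinning drew 700471 counts per cell (10th percentile of totals) and left out 2 3xTg and 5 WT cells. No cells were clustered and doublets were not called. The members, lists and the rule for named genes were chosen with earlier results of these data known: all members, the 3 genes most like each member counted in at least 80% of cells of both genotypes, and of each list the expressed genes with the highest and lowest difference and those that bind a member. Bap1, Rab3a, Rab7l1, Rab35, Usp30, Vps13c and Htra2 were added after their values were seen. The set of genes with a mean level of at least 1 was also chosen after the data were seen. Some genes, 1 of the gene lists and 2 list genes not found by symbol are not reported here. Marker lists covered DA neurons and their subtypes, GABA neurons, astrocytes, microglia, oligodendrocytes and endothelial cells.

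Levels between genes used transcript lengths from GENCODE M21 (GRCm38), and promoters came from RefSeq (GRCm38.p6), which matched 7 of the 8 members. The calculations were checked on simulated data. The alternatives tried were summed counts, CPM in place of size factors, TMM factors, thinned cells, pseudocounts of 0.1 and 10, removal of cells with a glial or interneuron marker, restriction to cells that held the gene, label runs, the authors' normalized values, values relative to the median gene, and leaving out each cell. Removal of WT 94 to 96 and of the highest cell from each sum was added after seeing the data. The software was edgeR 4.0.16 in R 4.3.3, and matplotlib 3.10.9, pandas 2.3.3, scipy 1.17.1 and numpy 2.4.6 in Python 3.11.15.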

Additional observations from a re-analysis of the deposited data

How the results depend on the processing

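Of 183 alternative values, 155 kept their direction and lay within 1.5-fold (log2 values) or 1.5 times (counts) of the reported value, 21 moved by more and 7 changed sign. Summed CPM gave −0.60 for Fbxo7 and −0.17 for Vps35, 0.20 for Park7, a median of 0.16 for the members, 1 member past 2-fold and −0.028 for the median expressed gene. Without the highest cell of each genotype, the sums gave −0.22 for Fbxo7, −0.13 for Vps35, 1.09 for Lrrk2, a median of 0.21 and 1 member past 2-fold. The first runs gave −0.90 for Sncg, 0.015 for Sncb, 0.79 for Fbxo7 and 1 member past 2-fold, and the second runs gave 3.25 for Sncg, 0.059 for Pink1, 2.30 for Fbxo7 and 5 members past 2-fold. Thinned cells gave 0.23 for Sncg and 1 member past 2-fold. A pseudocount of 0.1 gave 2.38 for Fbxo7, and one of 10 gave 0.60 for Fbxo7, 0.80 for Vps35 and 0 members past 2-fold. Cells with a count alone gave 0.045 for Fbxo7, 0.40 for Vps35 and 0 members past 2-fold. For Uchl1, 16 of 16 alternatives lay within that range. The causes were not tested, except that sums weight cells by their counts. Relative to the median expressed gene, 2 members were past 2-fold, Fbxo7 at 1.02 and Pink1 at −1.05. Leaving out single cells changed the direction of no member and moved none by more than 1.5-fold, but a further member passed 2-fold without 3xTg 26 (Park7, 1.10) or without 3xTg 24 (Sncg, 1.11). The cells 3xTg 31 and 3xTg 50 were also at 0 for Sncg, so leaving out either gives the same value as leaving out 3xTg 24. No paired analysis was possible because each cell number belongs to 1 genotype only. The total of a cell sets the lowest level that could be seen in it, so a cell at 0 counts has an upper limit and not a level of 0.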
